A study of Mus musculus with 18 samples.

Results

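Chromatin accessibility was described at the loci of 10 genes of sphingosine 1-phosphate and vasoactive signalling in lung endothelial cells (lung ECs): S1pr1, S1pr3, Calcrl, Ramp2, Ramp3, Adgrl4, Adgrf5, F2r, Ackr3 and Ltc4s. The assay for transposase-accessible chromatin (ATAC-seq) cuts open DNA with a transposase, and a peak is a stretch with more cut fragments than its surroundings. Nuclear peaks of the 18 peak lists were merged wherever they shared at least 1 bp, and regions with a peak in at least 2 lists were kept. A region belonged to a gene when that gene held the RefSeq transcription start site nearest to the region's midpoint, or when the region lay within its gene body. The rule gave 78 regions of 47338 in all, at 10 genes of the 17229 that had any region.

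Every list came from 1 FVB mouse carrying a Col1a1-GFP transgene, in which collagen-producing cells are green, and both sexes were used. Young mice were 2 months and aged mice 18 months old. Bleomycin, a drug that injures the lung, had been given into the trachea at 1 U per kg, and sham mice had received phosphate-buffered saline. At day 30 cells were taken from each mouse after depletion of CD45+, CD326+ and GFP+ cells and selection of CD31+ cells, so all groups shared the transgene and the sort. The groups were Young Sham (n = 5), Young Bleo (n = 4), Aged Sham (n = 4) and Aged Bleo (n = 5). The sort takes capillary, arterial, venous and lymphatic ECs together, and in such bulk samples fewer cells of a type and less open chromatin per cell cannot be told apart.

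The lists held 21050 to 40883 nuclear peaks, and 43.0% to 80.4% of all regions were called in a sample. The median peak had 25 to 33 fragments at its summit, a number recovered from the fold enrichment and p-value of each peak, and counting error at that depth limits the weaker peaks. A lane code in the list names split the samples into 3 lanes. Lane 8 held the 5 Young Sham samples and 1 Young Bleo sample, lane 7 held 3 Young Bleo and 3 Aged Sham samples, and lane 6 held 1 Aged Sham and 5 Aged Bleo samples. Lane and group therefore cannot be told apart for most comparisons with Young Sham. A fit with lane as a term rests on the 1 Young Bleo sample in lane 8 and the 1 Aged Sham sample in lane 6, whose own spread is unknown. Promoter regions were called for 9 of 9 endothelial marker genes, 6 of them in all 18 samples, and for 0 of 10 leukocyte markers in any sample. Of the other endothelial markers, Pecam1 was called in 17 samples, Sox17 in 16 and Emcn in 7, with Emcn in 0 of 4 Aged Sham samples. Promoters of 3 of 4 lymphatic markers (Prox1, Flt4 and Lyve1, not Pdpn) were also called. So were 1 of 5 epithelial markers (Foxj1) and 1 of 6 fibroblast and mural markers (Pdgfra), each in all 18 samples. The other markers of these 2 lists (Epcam, Sftpc, Nkx2-1, Cdh1, Col1a1, Pdgfrb, Acta2, Tcf21 and Rgs5) had no peak at their promoters.

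Sphingosine 1-phosphate is a lipid carried in blood that tightens the endothelial barrier through the receptor S1pr1, while S1pr3 couples to other G proteins as well and is known for effects on vascular tone. Calcrl becomes the receptor for adrenomedullin, a vasodilator peptide, when it pairs with Ramp2 or Ramp3, and Ackr3 removes the chemokine CXCL12 and also binds adrenomedullin. Adgrl4 and Adgrf5 are adhesion G protein-coupled receptors of ECs, F2r encodes the thrombin receptor PAR1, and Ltc4s makes leukotriene C4, the parent of the cysteinyl leukotrienes that make vessels leak.

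Stretches of the + strand of mm10 (RefSeq GRCm38.p6) around the summits of 7 regions are shown, together with 1 promoter. They are the 2 strongest regions of S1pr1 and 5 intronic regions of Calcrl, Adgrl4, Adgrf5 and Ramp3 whose values are described further on. Each is 200 bp long, and the F2r promoter is the 250 bases before its start site on its own strand. Capitals mark matches on either strand to the letters CAGGAAG (an ERG core), TGANTCA (AP-1), AACAAT (SOX), CCNCNCCC (KLF) and TGTTTNC (FOX), in which matches may overlap. Regions are named by their gene and the distance in bp of their midpoint from the nearest start site of that gene, with a plus sign for downstream.

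S1pr1 -53878 (chr3:115768882-115769081, plus strand): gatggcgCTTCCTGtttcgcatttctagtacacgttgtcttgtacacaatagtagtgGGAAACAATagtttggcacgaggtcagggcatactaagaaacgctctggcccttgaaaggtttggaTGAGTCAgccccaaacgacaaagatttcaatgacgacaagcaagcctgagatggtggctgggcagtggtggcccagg
S1pr1 +32151 (chr3:115682860-115683059, plus strand): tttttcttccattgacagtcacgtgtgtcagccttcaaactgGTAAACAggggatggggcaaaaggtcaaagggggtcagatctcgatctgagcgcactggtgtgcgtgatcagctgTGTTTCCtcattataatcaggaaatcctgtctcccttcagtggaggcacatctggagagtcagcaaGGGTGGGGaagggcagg
Calcrl +31871 (chr2:84393199-84393398, plus strand): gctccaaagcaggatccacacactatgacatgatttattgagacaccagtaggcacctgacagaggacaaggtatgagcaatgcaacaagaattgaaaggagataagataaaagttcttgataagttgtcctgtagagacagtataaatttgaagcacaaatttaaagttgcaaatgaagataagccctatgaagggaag
Adgrl4 +5847 (chr3:151443624-151443823, plus strand): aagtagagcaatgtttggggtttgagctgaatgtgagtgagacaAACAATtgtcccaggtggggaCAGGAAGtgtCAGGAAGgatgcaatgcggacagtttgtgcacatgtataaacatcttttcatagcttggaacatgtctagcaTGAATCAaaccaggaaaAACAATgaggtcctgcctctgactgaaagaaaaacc
Adgrf5 +18311 (chr17:43407651-43407850, plus strand): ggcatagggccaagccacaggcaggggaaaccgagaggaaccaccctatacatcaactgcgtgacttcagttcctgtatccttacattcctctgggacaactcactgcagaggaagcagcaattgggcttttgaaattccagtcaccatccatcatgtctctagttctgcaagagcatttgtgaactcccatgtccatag
Adgrf5 +31064 (chr17:43420471-43420670, plus strand): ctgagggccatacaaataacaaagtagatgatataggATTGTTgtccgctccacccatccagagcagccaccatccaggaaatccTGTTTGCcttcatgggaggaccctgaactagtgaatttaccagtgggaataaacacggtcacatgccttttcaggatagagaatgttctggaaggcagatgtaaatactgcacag
Ramp3 +17073 (chr11:6675516-6675715, plus strand): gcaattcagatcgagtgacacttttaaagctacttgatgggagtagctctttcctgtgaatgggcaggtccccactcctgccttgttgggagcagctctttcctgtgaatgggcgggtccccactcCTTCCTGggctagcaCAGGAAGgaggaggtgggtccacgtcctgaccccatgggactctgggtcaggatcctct
F2r promoter (chr13:95618467-95618716, minus strand): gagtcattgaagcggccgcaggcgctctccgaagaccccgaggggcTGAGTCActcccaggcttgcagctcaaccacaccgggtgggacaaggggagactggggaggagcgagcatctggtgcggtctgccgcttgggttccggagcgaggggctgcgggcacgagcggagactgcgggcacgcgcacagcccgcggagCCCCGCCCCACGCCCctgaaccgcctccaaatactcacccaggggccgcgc

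Among these, S1pr1 -53878 held 1 match each to the ERG, AP-1, SOX and FOX letters, and Adgrl4 +5847 held 2 ERG, 1 AP-1 and 2 SOX matches. Ramp3 +17073 held 2 ERG matches, while Calcrl +31871 and Adgrf5 +18311 held no match to any of the 5. Over the 78 regions the ERG core was present in 18 (23.1%, against 19.99% of all 47338 regions), AP-1 in 12 (15.4% against 8.72%), SOX in 12 (15.4% against 12.8%), FOX in 17 (21.8% against 19.3%) and KLF in 22 (28.2% against 38.1%). In the 22 regions called in every sample the ERG core was present in 8 (36.4%, against 16.7% of all such regions), FOX in 7 (31.8% against 14.1%), SOX in 3 (13.6% against 7.84%), KLF in 11 (50% against 54.8%) and AP-1 in 1 (4.55% against 6.16%). The ERG core was less common in the promoter regions of all genes (10.04%) than in the other regions (22.7%), and promoter regions are fewer among the 78 than among all regions. Of the 250-base promoters in the RefSeq table, 6.75% held the AP-1 letters and 45.9% the KLF letters, and the F2r promoter held both. The table had an entry for 8 of the 10 genes. A match is a description of the letters and not a bound site.

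The 78 regions were spread unevenly over the 10 loci. S1pr1 had 23 regions, Adgrf5 17, Calcrl 15, Ackr3 7, Adgrl4 5, Ramp2 3, Ramp3 3, S1pr3 2, F2r 2 and Ltc4s 1, so the 3 richest loci held 70.5% of them. By annotation 41 were intergenic (52.6%, against 34.9% of all regions), 23 lay in introns (29.5% against 36.9%), 8 at promoters (10.3% against 21.3%) and 6 in untranslated exons (7.69% against 3.47%). Most lay far from a start site, 46 of them between 10 and 100 kb (59.0%, against 44.0% of all regions), and 58 were downstream and 20 upstream. A total of 22 regions (28.2%) were called in all 18 samples, compared with 17432 (36.8%) of all regions. Within 1 kb of a start site, 6 of 9 were called in all 18 samples (66.7%, against 76.98% of all regions at that distance), and at 10 to 100 kb 11 of 46 were (23.9% against 21.04%).

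The number of the 78 regions called ran from 25 in the list with the fewest peaks (Aged Bleo 4, 21050) to 70 in the list with the most (Aged Bleo 2, 40883). It was 56, 58, 51, 55 and 47 in Young Sham, 53, 56, 60 and 49 in Young Bleo, 36, 49, 36 and 47 in Aged Sham, and 59, 70, 45, 25 and 37 in Aged Bleo. The share of the 78 regions called was lower than the share of all regions in 17 of 18 samples, and Aged Bleo 2 was the exception, 9.36 percentage points above. The group means of this difference were -3.48 ± 1.98 in Young Sham, -5.24 ± 2.95 in Young Bleo, -5.33 ± 2.02 in Aged Sham and -2.42 ± 7.71 in Aged Bleo (percentage points, SD), and the ranges of all 4 groups overlapped.

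**Figure D1:**
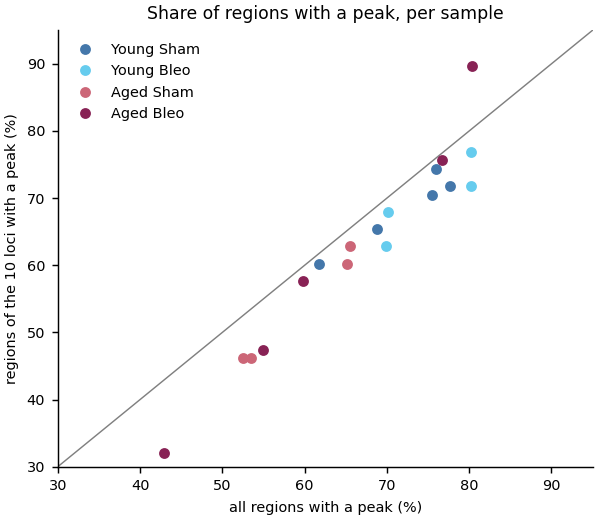
Percent of the 78 regions called in each sample (y axis) against the percent of all 47338 regions called in the same sample (x axis), with one point per sample and the diagonal marking equal shares. Of the 18 samples, 17 lie under the diagonal and Aged Bleo 2 lies above it.

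S1pr1, on the minus strand at chr3:115710433-115715055, had regions from 118268 bp downstream to 78525 bp upstream of its start. To compare peaks between lists, the strength of a region in a sample was taken as the percent of the 17432 regions called everywhere that had a lower fold enrichment in that list. The strongest S1pr1 region was not its promoter but S1pr1 +32151 (chr3:115682594-115683214, intergenic), with a mean strength of 78.6 over the 18 samples. Its strength was 77.3, 74.3, 83.5, 85.6 and 81.5 in Young Sham, 86.7, 84.3, 85.2 and 81.3 in Young Bleo, 58.8, 73.5, 72.7 and 78.9 in Aged Sham, and 82.8, 79.3, 72.972, 81.7 and 75.1 in Aged Bleo. The lowest value was Aged Sham 1, and the Aged Sham values overlapped those of Young Sham. S1pr1 -53878 (chr3:115768536-115769329, intergenic, mean strength 63.1) came next, and the promoter region S1pr1 +27 (chr3:115714700-115715355) had a mean strength of 49.1 with a range of 33.3 to 66.3.

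The other S1pr1 regions called in all 18 samples were S1pr1 +73192 (mean strength 46.9), S1pr1 -78525 (30.4) and S1pr1 +5769 (25.8). S1pr1 +73192 also held the annotated start of the long noncoding RNA Gm40124. The remaining 17 were called in 2 to 17 samples, and 6 of these in none of the Young Sham lists. S1pr1 +3472, in an untranslated exon, had a median of 60 fragments but a mean strength of 0.0425. The number of S1pr1 regions called was 16, 16, 14, 15 and 13 in Young Sham, 18, 16, 20 and 14 in Young Bleo, 11, 15, 10 and 15 in Aged Sham, and 17, 21, 13, 7 and 11 in Aged Bleo. Young Bleo had the highest mean (17 ± 2.58, SD, n = 4) and Aged Sham the lowest (12.8 ± 2.63, n = 4), and all 4 groups overlapped.

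S1pr3, on the plus strand at chr13:51408618-51422797, had no region over its start site. Its region S1pr3 +10136 (chr13:51418509-51418999) covered the start of the second exon of S1pr3 and the start of the antisense long noncoding RNA Gm32834, and was called in all 18 samples. Its strength was 29.4, 40.8, 18.7, 38.4 and 17.4 in Young Sham, 45.3, 55.5, 30.8 and 46.3 in Young Bleo, 7.19, 0.869, 22.7 and 13.6 in Aged Sham, and 22.6, 40.7, 25.1, 39.003 and 27.7 in Aged Bleo. The lowest value was in Aged Sham, whose values overlapped those of Young Sham and Aged Bleo. S1pr3 +16285 was called in 2 samples, 1 Young Bleo and 1 Aged Bleo.

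Calcrl, on the minus strand at chr2:84330626-84425266, had 15 regions, 8 of them beyond the end of the gene. Those at both ends of the locus were strongest. Calcrl +240393 (chr2:84184526-84185219, intergenic) had a mean strength of 57.8 and the promoter region Calcrl -48 (chr2:84425012-84425615) of 45.0, and these 2 were called in all 18 samples. Strength at Calcrl -48 was 50.049, 36.1, 70.7, 44.955 and 29.8 in Young Sham, 28.003, 62.982, 44.4 and 52.5 in Young Bleo, 35.9, 62.8, 27.3 and 35.4 in Aged Sham, and 42.6, 38.5, 39.5, 55.2 and 53.984 in Aged Bleo. Every group overlapped the other 3. The 6 intronic regions of Calcrl were called in 2 to 8 samples each, with mean strengths of 0.740 to 1.99.

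Ramp2, on the plus strand at chr11:101246334-101248250, had a promoter region, Ramp2 -11 (chr11:101245888-101246757), called in all 18 samples with strengths of 15.6, 20.2, 13.8, 18.5 and 12.3 in Young Sham, 24.2, 8.61, 18.3 and 10.7 in Young Bleo, 34.7, 26.3, 30.8 and 12.5 in Aged Sham, and 32.9, 18.7, 15.9, 19.7 and 39.7 in Aged Bleo. The highest values were in Aged Bleo 5 and Aged Sham 1, and the groups overlapped. Ramp2 +2266, just beyond the end of the gene, was called in all 18 samples at a mean strength of 8.29. Ramp3, on the plus strand at chr11:6658533-6677475, had a weaker promoter region, Ramp3 -41, called in 16 samples (mean strength 5.87). Its intronic region Ramp3 +17073 (chr11:6675361-6675850), which lies nearer to the start of Gm11978 than to that of Ramp3, was called in all 18 with a mean strength of 22.9.

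Ackr3, on the plus strand at chr1:90203980-90215724, had 7 regions. Ackr3 +201 (chr1:90203793-90204568), which covers its start site, was called in all 18 samples with a median of 48.5 fragments but a mean strength of 9.16. Its group means were 9.41 in Young Sham, 8.61 in Young Bleo, 9.17 in Aged Sham and 9.35 in Aged Bleo, within 1 percentile of each other. The strongest Ackr3 region was Ackr3 +21780 (chr1:90225516-90226004, intergenic), called in 16 samples at a mean strength of 12.7. The number of Ackr3 regions called was 6, 7, 5, 7 and 5 in Young Sham, 6, 7, 6 and 4 in Young Bleo, 4, 5, 2 and 6 in Aged Sham, and 7, 7, 5, 2 and 3 in Aged Bleo.

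Adgrl4, on the plus strand at chr3:151437882-151545081, had strong regions at and upstream of its start. Adgrl4 +3 (chr3:151437589-151438180, promoter), Adgrl4 -54302 and Adgrl4 -13216 were called in all 18 samples with mean strengths of 59.2, 57.7 and 51.2. Strength at Adgrl4 +3 was 76.1, 67.1, 63.5, 53.1 and 55.8 in Young Sham, 53.5, 68.5, 64.7 and 58.9 in Young Bleo, 50.9, 60.5, 47.5 and 60.2 in Aged Sham, and 53.2, 75.1, 59.5, 48.6 and 48.956 in Aged Bleo, and all groups overlapped. Adgrl4 +5847 (chr3:151443479-151443978, intron) was called in 16 samples and had group means of 35.3 in Young Sham, 16.3 in Young Bleo, 14.6 in Aged Sham and 16.6 in Aged Bleo, over the samples with a peak.

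Adgrf5, on the plus strand at chr17:43360431-43459557, has 2 annotated start sites, and both had weak regions. Adgrf5 +10, at the upstream start, was called in 15 samples (mean strength 2.68), and Adgrf5 -86, at the other start, in 9 samples (1.7). Adgrf5 -86 was called in 3 of 5 Young Sham, 0 of 4 Aged Sham and 3 of 5 Aged Bleo samples. In Young Bleo it was called in 3 of 3 samples of lane 7 and 0 of 1 of lane 8. Of the 78 regions, 22 were called in no Aged Sham sample. The same count was 6 for Aged Bleo, 8 for Young Bleo and 11 for Young Sham. Aged Sham also had the lowest mean share of all regions called (59.2%, against 71.9% in Young Sham), so the count of 22 is not specific to these loci. The strong Adgrf5 regions were distal or intronic. Adgrf5 -33445 (chr17:43326658-43327313, intergenic) had a mean strength of 51.4, Adgrf5 +31064 (chr17:43420157-43420902, intron) of 37.8, Adgrf5 +18311 (chr17:43407500-43408053, intron) of 28.7 and Adgrf5 +6393 (intron) of 26.3, and these 4 were called in all 18 samples. Adgrf5 +68079 and Adgrf5 +69350 lie within the gene but nearer to the start of Mep1a.

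F2r, on the minus strand at chr13:95601780-95618466, had 1 strong region, F2r +12 (chr13:95618108-95618799, promoter, mean strength 58.4), called in all 18 samples. Its strength was 69.9, 58.8, 68.4, 63.7 and 59.012 in Young Sham, 56.5, 58.4, 50.3 and 61.1 in Young Bleo, 57.013, 41.8, 72.7 and 66.8 in Aged Sham, and 62.7, 54.3, 52.4, 54.044 and 44.4 in Aged Bleo. The Aged Bleo and Young Bleo means (53.5 and 56.5) were lower than the Young Sham mean (63.9), with overlapping values. The only other F2r region, F2r -34016, lay in an intron of another gene and was called in 2 Young Sham samples and 1 Young Bleo sample, all in lane 8. Ltc4s, on the minus strand at chr11:50236461-50238532, had a single region, Ltc4s +1722 (chr11:50236514-50237105), inside the gene and 1722 bp from its start. It was called in all 18 samples and had a mean strength of 75.6, above all but 1 of the other regions described here (S1pr1 +32151, 78.6).

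**Figure D2:**
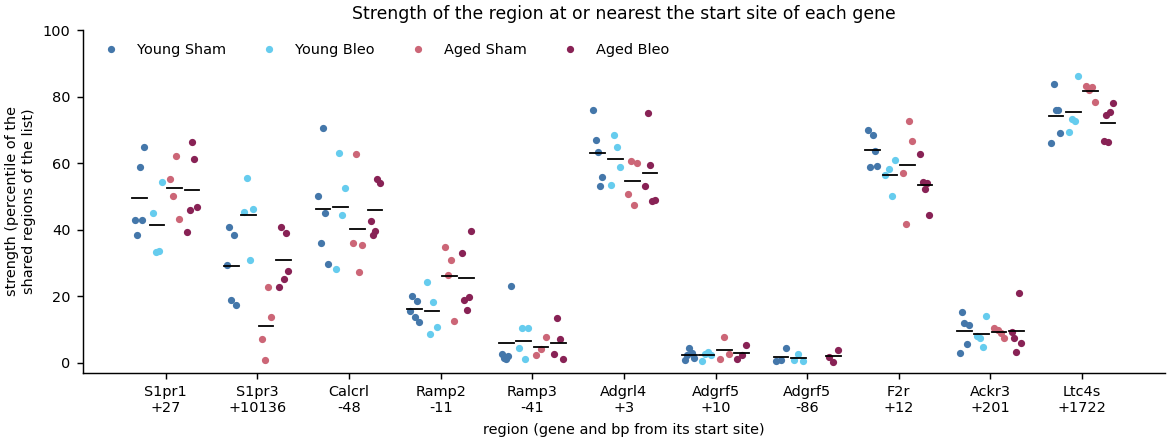
Strength percentile (y axis, 0 to 100) of the 9 regions over a start site and of S1pr3 +10136 and Ltc4s +1722, which are not over one. Points are samples with a peak, coloured by group, and lines are group means. Ltc4s +1722, Adgrl4 +3 and F2r +12 sit highest, and both Adgrf5 start-site regions sit near 0.

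The first question of the design was how aged lung ECs differ from young ones without injury (Aged Sham against Young Sham). Of the 78 regions, 33 were called in a smaller share of Aged Sham than Young Sham samples, 7 in a larger share and 38 in an equal share. That is 42.3% lower, against 38.4% of all regions. Calcrl +238892, Calcrl +147968, S1pr1 +118268 and Adgrf5 -27555 were each called in 5 of 5 Young Sham and 1 of 4 Aged Sham samples (two-sided Fisher's exact test, p = 0.0476 each). These 4 calls are 5.13% of the 78 regions, and 5.17% of all 47338 regions passed the same unadjusted threshold of 0.05, 4.9% in the lower direction, so the share was near the background. No region of the 47338 passed after Benjamini-Hochberg adjustment, and the smallest adjusted p was 0.786. With every list reduced to the same number of its strongest peaks, Calcrl +238892 alone of the 4 passed, and S1pr1 +118268 and Adgrf5 -27555 turned direction. In the full lists the same 4 regions were called in 4, 2, 2 and 1 of 4 Young Bleo samples and in 3, 2, 2 and 3 of 5 Aged Bleo samples, in that order. Lane 8, which held every Young Sham sample, had a peak in 5 or 6 of its 6 samples at each of them, and the Aged Sham lists were shorter in general: the share of Aged Sham samples with a peak, less that of Young Sham samples, averaged -14.6 percentage points over the 78 regions and -12.8 over all regions.

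Counted by gene, Calcrl and Adgrf5 had fewer regions called in Aged Sham. Calcrl regions called were 9, 10, 7, 10 and 7 in Young Sham, 7, 8, 8 and 7 in Young Bleo, 3, 7, 5 and 6 in Aged Sham, and 10, 13, 6, 3 and 5 in Aged Bleo. The Aged Sham mean was 5.25 and the Young Sham mean 8.60 (exact permutation test, two-sided p = 0.0476, adjusted p = 0.453 over 17229 genes), and the groups met at 7 regions. Adgrf5 regions called were 12, 12, 13, 9 and 11 in Young Sham, 10, 12, 12 and 11 in Young Bleo, 7, 10, 7 and 9 in Aged Sham, and 11, 15, 10, 4 and 6 in Aged Bleo, with means of 8.25 and 11.4 and overlapping values (exact permutation test, p = 0.0397, adjusted p = 0.453). Of all genes, 10.2% passed the unadjusted threshold in the lower direction, and 21.7% of the genes with at least 5 regions did, a class that holds 5 of the 10 genes. S1pr1, Ackr3 and Adgrl4, the others with at least 5 regions, did not pass it in this comparison. With every list reduced to the same number of its strongest peaks neither gene passed, at differences of -0.7 regions for Calcrl (exact permutation test, p = 0.238) and 0.05 for Adgrf5 (exact p = 1), which turned direction. With 1 sample left out, Calcrl passed in 1 of 9 cases (without Aged Sham 2) and Adgrf5 in 1 of 9 (without Young Sham 4).

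**Figure D3:**
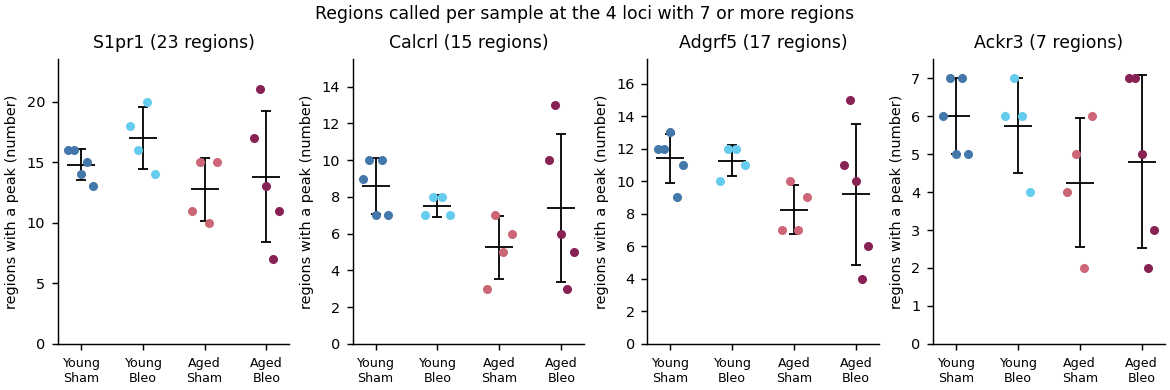
Number of regions called per sample (y axis) at the 4 loci with 7 or more regions, by group. Points are samples, and bars are group means ± SD. Calcrl and Adgrf5 have lower means in Aged Sham (5.25 and 8.25) than in Young Sham (8.60 and 11.4), and Aged Bleo has the widest spread at each locus.

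On the percentile scale, strength in Aged Sham differed most from Young Sham at Adgrf5 +18311. Its strength was 7.70, 6.66, 22.9, 20.6 and 9.05 in Young Sham, 28.978, 31.015, 19.1 and 20.4 in Young Bleo, 26.8, 42.6, 40.2 and 34.4 in Aged Sham, and 55.4, 41.8, 27.1, 34.993 and 47.6 in Aged Bleo. All 4 Aged Sham values lay above all 5 Young Sham values, as 6.64% of the 17432 regions tested did in one direction or the other. The difference was 22.6 ± 5.37 percentiles (SE), with a limma adjusted p of 0.0518, which misses the threshold of 0.05. On the log2 fold enrichment scale it was 0.51 ± 0.12 (SE) with a limma adjusted p of 0.0430. None of the 22 regions tested passed at an adjusted p under 0.05 in limma, against 1.21% of all, while 3 had an unadjusted p under 0.05, against 15.9% of all. The other 2 were S1pr3 +10136 (-17.9 ± 6.19 percentiles, limma adjusted p = 0.168, and the larger difference on the log2 fold enrichment scale, -0.61 ± 0.17, adjusted p = 0.0735) and S1pr1 +32151 (-9.42 ± 3.55, adjusted p = 0.205). At S1pr1 +32151 the difference was -5.36 without Aged Sham 1 and -16.2 with lane in the model. The median difference over the 22 was 0.77 percentiles, and 0.43 over all regions.

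The second question was how young lung ECs differed 30 days after bleomycin (Young Bleo against Young Sham). Presence differed at 5 of the 78 regions at the unadjusted threshold (6.41%, against 5.94% of all regions), again near the background. Calcrl +31871, an intronic region whose sequence is shown, was called in 5 of 5 Young Sham and 0 of 4 Young Bleo samples (two-sided Fisher's exact test, p = 0.00794, the smallest this design allows, adjusted p = 0.535). It was called in 2 of 4 Aged Sham and 1 of 5 Aged Bleo samples. Its mean strength was 1.84 at a median of 14.5 fragments, and within lanes it was called in 5 of 5 Young Sham and 0 of 1 Young Bleo samples of lane 8, 0 of 3 Young Bleo and 2 of 3 Aged Sham samples of lane 7, and 0 of 1 Aged Sham and 1 of 5 Aged Bleo samples of lane 6. With lane in a limma fit of presence it passed the unadjusted threshold, as did S1pr1 +25423, but that fit compares Young Sham with the 1 Young Bleo sample of lane 8.

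Adgrf5 -27555 was also called in fewer Young Bleo samples (5 of 5 against 1 of 4, Fisher's exact p = 0.0476). S1pr1 +25423 and S1pr1 +3472 were called in 0 of 5 Young Sham and 3 of 4 Young Bleo samples, and Adgrf5 +11165 in 1 of 5 and 4 of 4 (exact p = 0.0476 each). The Young Bleo sample in lane 8 had a peak at S1pr1 +25423 and Adgrf5 +11165 but not at S1pr1 +3472 or Adgrf5 -27555. With every list reduced to the same number of its strongest peaks, none of these 5 differences, Calcrl +31871 included, passed the threshold. The background was 1.96% of all regions in the lower direction and 3.98% in the higher direction. None of the 10 genes passed the unadjusted exact permutation test on its number of called regions, against 7.7% of all genes.

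**Figure D4:**
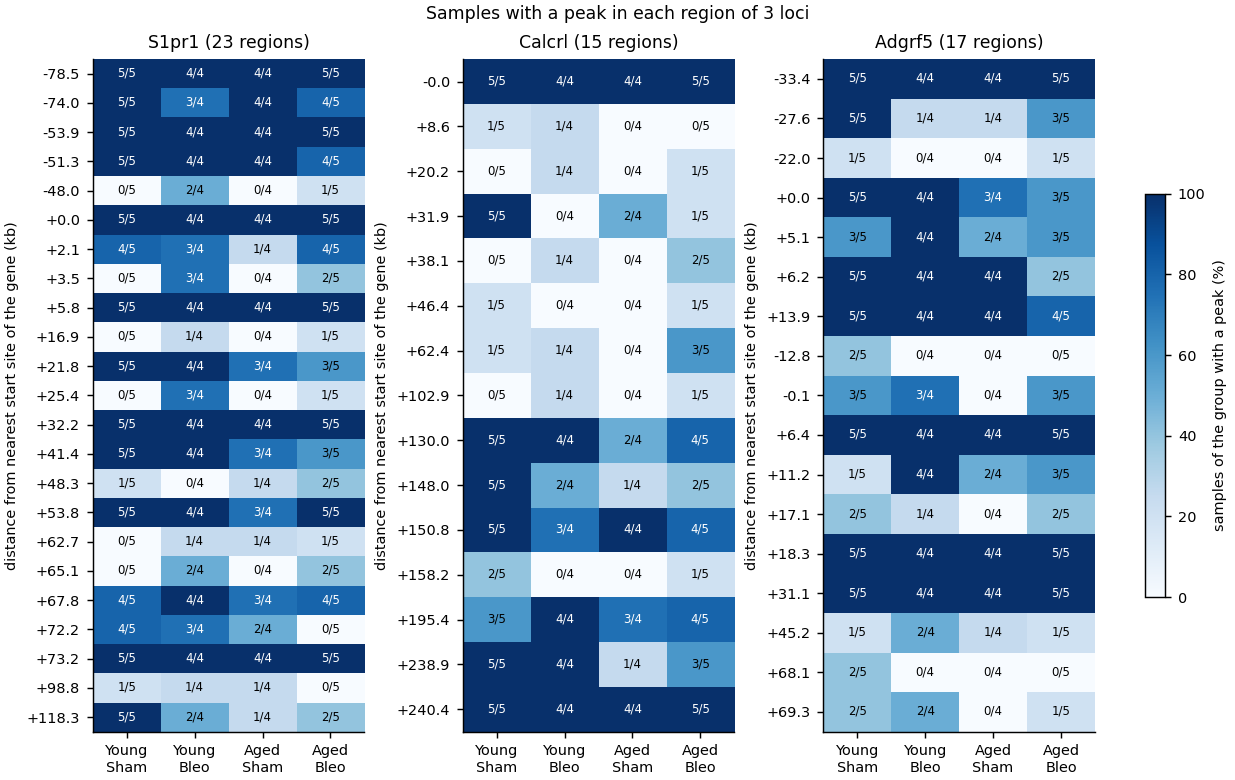
Presence of the S1pr1, Calcrl and Adgrf5 regions (rows) in the 4 groups (columns), with the number of samples called in each cell and colour for the percent called. S1pr1 and Calcrl regions are ordered by distance from the start and Adgrf5 regions along the chromosome. Calcrl +31871 is called in 5 of 5 Young Sham and 0 of 4 Young Bleo samples.

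In strength, 0 of 22 regions passed the adjusted limma threshold between Young Bleo and Young Sham (2.75% of all did), and 4 had an unadjusted p under 0.05 (17.4% of all did). Adgrf5 +31064 had a lower mean in Young Bleo, with a difference of -22.4 ± 7.60 percentiles (limma adjusted p = 0.133), at strengths of 53.1, 58.6, 34.7, 60.1 and 43.9 in Young Sham, 17.003, 23.1, 38.971 and 31.7 in Young Bleo, 30.2, 41.7, 49.3 and 17.7 in Aged Sham, and 27.6, 33.1, 57.002, 22.9 and 40.5 in Aged Bleo. Young Bleo and Young Sham overlapped by 1 Young Sham sample, and the single Young Bleo sample in lane 8 differed from the Young Sham mean of the same lane by -18.4 percentiles. The regions with higher means in Young Bleo were S1pr3 +10136 (15.5 ± 6.19, limma adjusted p = 0.202), S1pr1 -78525 (14.4 ± 4.84, adjusted p = 0.128) and Adgrf5 +18311 (11.5 ± 5.37, adjusted p = 0.281). At S1pr1 -78525 the values were 20.9, 24.4, 24.9, 22.6 and 39.6 in Young Sham, 37.2, 56.9, 37.001 and 32.4 in Young Bleo, 14.8, 18.5, 19.6 and 31.2 in Aged Sham, and 35.6, 36.5, 27.951, 32.8 and 34.3 in Aged Bleo, and Young Sham 5 alone reached the Young Bleo range. The difference there was 9.06 without Young Bleo 2 and 5.93 with lane in the model.

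Aged lung ECs after bleomycin were compared with both sham groups. Against Young Sham, 2 regions were called in fewer Aged Bleo samples (2.56%, against 3.21% of all regions): Calcrl +31871 (1 of 5 against 5 of 5) and S1pr1 +72190 (0 of 5 against 4 of 5), each with a two-sided Fisher's exact p of 0.0476 and an adjusted p of 1. Neither passed with every list reduced to the same number of peaks. In the full lists the count was 5, all lower, without Aged Bleo 1 (5.43% of all regions) or without Aged Bleo 2 (5.86%). No gene passed on its number of called regions, against 5.13% of all genes. The share of Aged Bleo samples with a peak, less that of Young Sham samples, averaged -7.95 percentage points over the 78 regions and -9.003 over all 47338.

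Adgrf5 +18311 was the 1 region of 22 that passed the adjusted limma threshold in this comparison, against 10.6% of all regions. Its mean strength was 41.4 in Aged Bleo and 13.4 in Young Sham, a rise of 28.0 ± 5.06 percentiles (SE, adjusted p = 0.00404), and its fold enrichment was 1.51-fold higher (log2 0.59 ± 0.12, limma adjusted p = 0.00481). All 5 Aged Bleo values were above all 5 Young Sham values, and 7.96% of all regions did not overlap in this comparison. The call held when each sample was left out in turn. It did not hold with the strength taken among all peaks of a list (16.1 percentiles, limma adjusted p = 0.106) or with lane in the model (24.2 percentiles, adjusted p = 0.686), under which no region of the 17432 passed. In lane 7 the Aged Sham mean was 10.2 percentiles above the Young Bleo mean, in lane 8 the Young Bleo sample was 7.003 above the Young Sham mean, and in lane 6 the Aged Bleo mean was 6.99 above the Aged Sham sample.

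S1pr1 +73192 (16.3 ± 7.11 percentiles, limma adjusted p = 0.150) and Adgrf5 -33445 (10.1 ± 4.33, adjusted p = 0.142) had higher means and F2r +12 (-10.4 ± 4.84, adjusted p = 0.175) a lower mean in Aged Bleo than in Young Sham, without passing the test. With lane in the model the first 2 turned lower (-15.4 and -11.3 percentiles), and over the 22 regions 11 changed direction in this comparison, against 30.7% of all regions. Including Adgrf5 +18311, 4 of 22 had an unadjusted p under 0.05, against 27.6% of all regions.

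**Figure D5:**
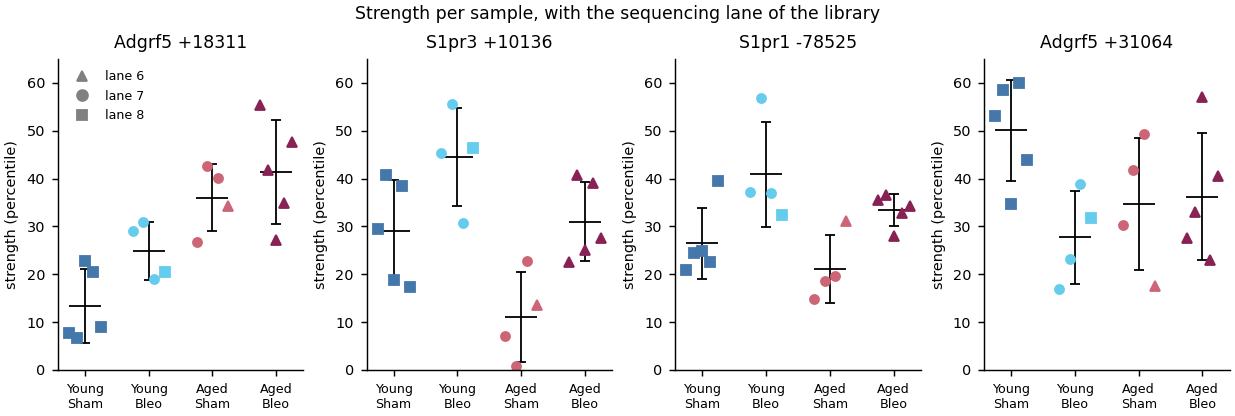
Strength percentile (y axis) by sample at 4 regions, grouped by age and treatment, with the marker shape giving the lane and bars the group mean ± SD. At Adgrf5 +18311 the Aged Sham and Aged Bleo samples all lie above the Young Sham samples, and at S1pr3 +10136 the Aged Sham samples overlap those of Young Sham and Aged Bleo.

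Between Aged Bleo and Aged Sham, none of the 78 regions passed the unadjusted Fisher's exact threshold of 0.05, against 0.885% of all, and no gene did, against 1.11% of all genes. Of the 78, 36 regions were called in a larger share of Aged Bleo samples (46.2%, against 33.0% of all regions) and 15 in a smaller share. The share of Aged Bleo samples with a peak, less that of Aged Sham samples, averaged 6.67 percentage points over the 78 regions and 3.76 over all regions. In strength 0 of 22 passed in limma after adjustment (0.344% of all did) and 4 had an unadjusted p under 0.05 (15.9% of all did). S1pr3 +10136 was higher in Aged Bleo by 19.9 ± 6.19 percentiles (limma adjusted p = 0.131), S1pr1 -78525 by 12.4 ± 4.84 (adjusted p = 0.221) and Adgrf5 -33445 by 11.9 ± 4.59 (adjusted p = 0.215). With lane in the model these 3 differences were 17.4, 2.22 and 0.409.

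Ltc4s +1722 had a lower mean in Aged Bleo, with a difference of -9.48 ± 3.93 percentiles (limma adjusted p = 0.249). Its strength was 65.9, 83.9, 75.9, 75.9 and 68.999 in Young Sham, 69.4, 73.2, 72.6 and 86.2 in Young Bleo, 83.2, 81.964, 83.1 and 78.5 in Aged Sham, and 66.7, 74.5, 66.3, 75.4 and 78.2 in Aged Bleo, and the Aged Sham and Aged Bleo values did not overlap, as those of 4.69% of all regions did not. The bleomycin difference at 18 months was compared with that at 2 months by an interaction term, and 0 of 22 regions passed in limma after adjustment (0.00574% of all did). The 1 with an unadjusted p under 0.05 was Adgrf5 +31064 (23.9 ± 10.8 percentiles, limma adjusted p = 0.527), against 9.12% of all regions. An effect that passed in one age and not in the other is thus not shown to differ between ages at any of the 22 regions.

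When strength was computed from the fragments at the summit instead of the fold enrichment, a choice made after seeing the data, more regions passed the limma threshold, among the 22 and among all. In Aged Sham 3 of 22 passed (7.67% of all did), in Young Bleo 3 (14.7% of all), in Aged Bleo against Young Sham 6 (30.6% of all) and in Aged Bleo against Aged Sham 2 (14.1% of all). S1pr3 +10136 was then higher in Young Bleo than Young Sham by 11.7 percentiles (adjusted p = 0.0310) and higher in Aged Bleo than Aged Sham by 12.2 (adjusted p = 0.0273). Adgrf5 +31064 was lower in Young Bleo (-28.9, limma adjusted p = 0.00781), F2r +12 in Aged Bleo than in Young Sham (-13.4, limma adjusted p = 0.0204), and S1pr1 +32151 in Aged Sham (-9.12, limma adjusted p = 0.0394). Ltc4s +1722 was higher than in Young Sham in Aged Sham (8.73, limma adjusted p = 0.0107), Young Bleo (6.89, adjusted p = 0.0204) and Aged Bleo (9.52, adjusted p = 0.00108). S1pr1 -78525 changed direction under this measure in Young Bleo (-5.12, limma adjusted p = 0.176), and Ltc4s +1722 did so in Aged Bleo against Aged Sham (0.793, adjusted p = 0.796). S1pr1 -78525 also turned in Aged Bleo against Young Sham, where it passed as lower, and it passed as lower in Aged Sham. Ramp2 -11, Ramp2 +2266 and Adgrf5 +18311 passed as higher in Aged Bleo against Young Sham. S1pr1 +32151 passed as higher in Aged Bleo against Aged Sham.

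Other genes of the same pathways were taken from 7 lists of 63 genes, chosen with earlier results of these data known, of which 53 had a region and 324 regions in all. The lists covered sphingosine 1-phosphate enzymes and receptors, adrenomedullin and CXCL12, thrombin receptors, adhesion G protein-coupled receptors, leukotrienes, other vasoactive receptors and enzymes, and G proteins. Presence passed the unadjusted Fisher's exact threshold at 11 of 324 regions in Aged Sham against Young Sham (11 lower and 0 higher, 3.395%), at 17 in Young Bleo (5 lower, 12 higher, 5.25%), at 11 in Aged Bleo against Young Sham (10 lower, 1 higher, 3.395%) and at 2 in Aged Bleo against Aged Sham (0.617%). All regions gave 5.17%, 5.94%, 3.21% and 0.885% in the same comparisons. In strength, 80 of the 324 regions could be tested, and 1, 4, 9 and 1 passed the adjusted limma threshold in the same order, 2 of the 9 lower and the others all higher. Of all regions 1.21%, 2.75%, 10.6% and 0.344% passed, so the counts in Aged Sham and in Aged Bleo against Young Sham were near the background.

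The region at the promoter of Cxcl12, the ligand that Ackr3 removes, had mean strengths of 12.03 (Young Sham), 35.1 (Young Bleo) and 32.9 (Aged Bleo). It rose by 23.05 ± 4.79 percentiles in Young Bleo (limma adjusted p = 0.0184) and by 20.9 ± 4.52 in Aged Bleo (adjusted p = 0.0104), both against Young Sham. In Aged Bleo against Aged Sham and in Aged Sham against Young Sham, no region of the adrenomedullin and CXCL12 list passed in strength. The promoter of Ece1, which processes endothelin, rose by 27.5 ± 3.59 in Aged Bleo against Young Sham (limma adjusted p = 5.78e-04) and by 19.4 ± 3.80 against Aged Sham (adjusted p = 0.0444). A region 27918 bp downstream of the start of Ednrb, an endothelin receptor, rose by 25.2 ± 5.97 in Young Bleo (limma adjusted p = 0.0339) and by 26.6 ± 5.63 in Aged Bleo (adjusted p = 0.00921), both against Young Sham. This region did not pass in Aged Bleo against Aged Sham. An intron of Plpp3, which degrades sphingosine 1-phosphate, rose by 29.5 ± 5.18 in Young Bleo (limma adjusted p = 0.00751). Another region of Plpp3 (chr4:105305851-105306519, intergenic, 148838 bp downstream of its start) fell by 11.7 ± 2.96 in Aged Bleo against Young Sham (limma adjusted p = 0.0218). The Adgrg1 promoter, of another adhesion receptor, rose by 31.2 ± 6.21 in Aged Sham (adjusted p = 0.0272). Aplnr -6686, near the apelin receptor gene, fell by 14.6 ± 4.20 in Aged Bleo against Young Sham (limma adjusted p = 0.0376). With lane in the model none of these passed, since no region of the 17432 did.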

How the data were processed

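The submitters' notes name BWA and MACS2. Per the study's methods, reads were aligned to mm10, duplicates were discarded, and peaks were called per sample at an FDR of 1%. A control library and a transposase shift are not given in the sources used here. Each deposited peak list gives a position, a score, the fold enrichment over local background (a ratio), and −log10 p and −log10 q. The score and the summit offset were made by the authors' caller. Peak lists hold no read counts, so no count test was run. Fragments at each summit were recovered from the deposited fold enrichment and −log10 p (at least 99.989% whole within 0.001). A total of 19 peaks outside the nuclear chromosomes were left out.

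Peaks were merged with Python 3.11.15, and strength was tested with limma 3.58.1 in R 4.3.3 over the 17432 regions called in all 18 samples, with Benjamini-Hochberg adjustment over all of them. All 4 groups entered one fit. Presence was tested per region with Fisher's exact test over 47338 regions, and called regions per gene with an exact permutation test. A promoter reached from 1000 bp before to 100 bp after a start. P-values set each group difference against the spread between mice of the same group. All Young Sham samples were in lane 8 and all Aged Bleo samples in lane 6. That spread therefore leaves out most of any variation between lanes. Every member region passing an unadjusted p of 0.05 in a comparison was named, with the promoter region and the strongest other region of each gene. Members and lists were chosen with earlier results of these data known. Alternatives were a −log10 q of at least 5, equal numbers of peaks, regions in at least 3 lists, coverage of at least 50% of a region, nearest start sites only, other strength scales, lane, replicate number, and leaving out each sample. The tests were checked on simulated data that had no lane effect and no difference in list length, so the check cannot speak to either.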

Additional observations from a re-analysis of the deposited data

Results flagged for a closer look

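Single samples stood far from the rest of their group in 8 of the 132 groups of values looked at (6.06%). Chance alone would mark about 1 in 20 groups of continuous values. That rate does not hold for small counts, where 1 sample that differs from otherwise equal ones is always marked. At S1pr1 -78525 the strength of Young Sham 5 was 39.6, against 20.9 to 24.9 in the other Young Sham samples, and at S1pr1 -53878 that of Young Bleo 1 was 58.2, against 66.6 to 66.7. The lowest background coverage of Aged Bleo 1 was 1.60, against 1.06 to 1.14 in the other Aged Bleo samples. Small counts of called regions also stood apart: Ramp3 had 2 in Young Sham 5 (others 3), S1pr3 had 2 in Young Bleo 3 and in Aged Bleo 5 (others 1), F2r had 2 in Young Bleo 4 (others 1), and Ramp2 had 3 in Aged Sham 1 (others 2). These last 5 each rest on 1 weak region.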

How the results depend on the processing

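Presence calls depended on the processing. With every list reduced to the same number of peaks, 3 regions were called for Aged Sham (1 lower and 2 higher, Ackr3 -1465 and S1pr1 +67765, where all 4 had been lower; 1.73% of all regions were), 3 for Young Bleo (4.05%) and 3 for Aged Bleo (1.81%) against Young Sham, and of the original calls only Calcrl +238892 in Aged Sham held, while S1pr1 +118268 and Adgrf5 -27555 turned to higher shares in Aged Sham (0.25 and 0.05), as did the called regions of Adgrf5 (0.05 more on average). Requiring peaks to cover at least 50% of a region gave 8 calls for Aged Sham (6.40% of all regions), 10 for Young Bleo (6.96%), 4 for Aged Bleo against Young Sham (5.94%) and 1 against Aged Sham (1.17%). A lane term in limma gave 9 (7.05%), 5 (6.06%), 6 (4.47%) and 1 (2.59%) in the same order, with 3 of the 4 Aged Sham calls (not Adgrf5 -27555) and 2 of the 5 Young Bleo calls (Calcrl +31871 and S1pr1 +25423) among them, but rests on 1 Young Bleo sample in lane 8 and 1 Aged Sham sample in lane 6. Both Aged Bleo calls against Young Sham, Calcrl +31871 and S1pr1 +72190, were lost under each of these 3 settings. Leaving out any 1 sample gave 0 to 2 calls for Aged Sham and 1 to 3 for Young Bleo, since fewer samples need a larger difference, and 2 to 5 for Aged Bleo against Young Sham (5 without Aged Bleo 1 or Aged Bleo 2). Calcrl +31871 kept its Young Bleo call each time. Of the 2 genes called in Aged Sham, 1 (Calcrl) was called at a −log10 q of at least 5, with regions in at least 3 lists and with nearest start sites only, 0 with equal numbers of peaks, and 0 to 1 when a sample was left out.

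The replicate numbers did not pair the samples (correlations of same-numbered deviations from -0.19 to 0.34, and not every sample correlated best with its own number). As a replicate block they gave 0 presence calls in all 4 comparisons and 0 genes, because an exact test within numbers cannot go below p = 0.125 with 4 pairs or 0.0625 with 5, and the strength call at Adgrf5 +18311 held with the block in limma.

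In strength, log2 fold enrichment gave 1 call for Aged Sham (Adgrf5 +18311), and the single call for Aged Bleo against Young Sham became 0 with percentiles among all peaks or a lane term. The percentile of fragments, chosen after seeing the data, gave 3 calls for Aged Sham, 3 for Young Bleo, 6 for Aged Bleo against Young Sham and 2 against Aged Sham (7.67%, 14.7%, 30.6% and 14.1% of all regions). With it S1pr1 -78525 turned lower in Young Bleo (-5.12) and in Aged Bleo (-11.6, limma adjusted p = 0.0024), and Ltc4s +1722 turned higher in Aged Bleo against Young Sham (9.52, limma adjusted p = 0.00108) and Aged Sham (0.793). With lane, 11 of the 22 values for Aged Bleo against Young Sham turned (30.7% of all regions did) and 10 of those against Aged Sham (26.3%). For Aged Sham 6 turned (25.4% of all regions) and for Young Bleo 4 (23.2%). For Aged Bleo against Young Sham, the values that turned included S1pr1 +73192 (-15.4), S1pr1 -78525 (-17.9), Adgrf5 -33445 (-11.3) and Ltc4s +1722 (16.8). Adgrf5 +31064 (14.3), Calcrl +240393 (-14.5) and Calcrl -48 (13.6) were also among them. Against Aged Sham, S1pr1 +32151 (-0.555) was among those that turned. Among all peaks, a scale on which the median region moved by -3.25 for Aged Bleo against Young Sham, S1pr1 -78525 (-1.995) and Ramp2 +2266 (-2.95) turned, and on log2 fold enrichment Ltc4s +1722 did (0.056). Leaving out a sample, Ltc4s +1722 ranged from -2.40 to 3.67 in Young Bleo and from -3.98 to 0.52 in Aged Bleo against Young Sham. The cause of these turns was not tested. For single regions and genes, each result was counted once per setting. With a sample left out, 268 cases stayed on the same side of their threshold, 80 stopped passing and 4 changed direction. Under the other settings 132 cases stayed on the same side, 37 stopped passing, 12 began to pass and 15 changed direction. Peaks of 10 to 20 fragments are near the depth limit of the lists.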

Other observations

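Among genes with at least 5 regions, the share of regions called in each sample, less the share of all regions called there, was compared with that of 3265 other genes over the 18 samples, as a description with no test. The genes most like S1pr1 were Mical3 (Pearson r = 0.81) and Sox5 (0.79), and those most like Calcrl were Piezo2 (0.82), a mechanically gated channel, and Tmx1 (0.75). Adgrl4 was most like Mir1954 (0.81) and Eng (0.80), which encodes the endothelial co-receptor endoglin. Adgrf5 was most like Tex29 (0.68) and Itgb1bp1 (0.65), and Ackr3 most like Grrp1 (0.84) and Dnajc11 (0.78). The points share the depth of each list, and with this many genes compared the highest values are chosen ones.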
